A study of Homo sapiens with 3 samples.

Results

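ETS1, FLI1, ETS2 and ERG are 4 human genes of the ETS family that lie in 2 pairs, ETS1 with FLI1 on chromosome 11 and ERG with ETS2 on chromosome 21. ETS1 binding at these loci was taken from the 1 consensus list of ETS1 ChIP-Seq peaks of SCC25 cells. A peak was counted for a gene when its midpoint lay in the gene body or within 100 kb of it, with gene bodies from GENCODE release 44 on GRCh37, the nuclear sequence of the hg19 build that the authors used. This rule found 27 of the 26970 peaks, 11 on chromosome 11 and 16 on chromosome 21. SCC25 is an established cell line of tongue carcinoma, described in the labels as mesenchymal, from head and neck squamous cell carcinoma (HNSCC). The samples were 3 ChIPs of SCC25 cells with no treatment or genotype named in the labels, 2 with C20 and 1 with 501A as the antibody against ETS1, and IDR, which keeps peaks of reproducible rank, merged them. Each peak is a pair of coordinates with no height, so position and width are the only measurements, and values per sample, antibody or replicate are not analysed here. No spread between replicates stands behind any count or width below, and no test was run on them. The list does not give the read depth of the samples.

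ETS proteins are transcription factors that bind DNA through a conserved ETS domain, which recognises a GGAA core. ETS1 and ETS2 are close paralogues that are phosphorylated in response to RAS and ERK signalling. FLI1 and ERG form a sister group best known in endothelial and blood cells and as partners in the gene fusions of Ewing sarcoma and prostate cancer. In each pair the genes lie head to head on opposite strands. ETS1 (ENSG00000134954.14_13) is on the minus strand from 128328656 to 128457453 and FLI1 (ENSG00000151702.18_10) on the plus strand from 128556430 to 128683162. On chromosome 21, ERG (ENSG00000157554.20_13) runs on the minus strand from 39751949 to 40033704 and ETS2 (ENSG00000157557.13_10) on the plus strand from 40177107 to 40196879. Each pair is flanked by genes of inwardly rectifying potassium channels, KCNJ1 and KCNJ5 beyond FLI1 and KCNJ15 beyond ERG.

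The DNA under the peaks at the transcription start sites (TSSs) of ETS1, ETS2 and ERG is shown first, because these peaks were the widest of their windows. Each line is a stretch of 200 bp in GRCh37, read 5′ to 3′ on the strand of the gene. It is the stretch free of any annotated exon that lies nearest to the midpoint of the peak. Capitals mark GGAA or its complement TTCC, and the AP-1 site TGAGTCA or TGACTCA. AP-1 factors (FOS and JUN) often act beside ETS factors.
ETS1, upstream of its internal TSSs, minus strand, chr11:128392206-128392405: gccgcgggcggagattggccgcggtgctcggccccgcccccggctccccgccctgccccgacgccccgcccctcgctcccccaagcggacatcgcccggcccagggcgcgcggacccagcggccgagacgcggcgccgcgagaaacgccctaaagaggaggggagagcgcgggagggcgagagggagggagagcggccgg
ETS2, upstream of the canonical TSS, plus strand, chr21:40177541-40177740: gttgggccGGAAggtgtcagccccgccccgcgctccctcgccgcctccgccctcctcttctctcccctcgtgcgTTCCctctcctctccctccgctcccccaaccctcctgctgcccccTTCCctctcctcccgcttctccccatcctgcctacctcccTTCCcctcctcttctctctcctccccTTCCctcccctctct
ERG, first intron of the longest coding transcript, minus strand, chr21:40032728-40032927: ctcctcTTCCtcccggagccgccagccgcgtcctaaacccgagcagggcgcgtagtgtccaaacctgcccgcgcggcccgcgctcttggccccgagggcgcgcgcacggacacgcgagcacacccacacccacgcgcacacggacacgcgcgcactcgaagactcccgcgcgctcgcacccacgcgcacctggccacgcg
The stretch at ETS1 held no GGAA on either strand, that at ETS2 held 5 and that at ERG held 1. These stretches are short, and the counts over wider windows are given with the TSSs.

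Each of the 4 genes had a peak with its midpoint within 500 bp of an annotated TSS of that gene, and at FLI1 and ETS2 this was the canonical TSS (the start of the representative transcript of the annotation). Over all 19881 protein-coding genes, 53.8% had a peak at any annotated TSS and 46.7% had one at the canonical TSS. The members have 8 to 11 different TSSs each against a median of 5 for all genes, and among the 3364 genes with 8 to 11 TSSs, 69.7% had a peak at any of them. At ETS1 and ERG the peak lay at another TSS and none lay at the canonical TSS, a pattern found at 7.03% of all protein-coding genes. That share includes genes with 1 TSS, which cannot show the pattern, and was not taken over genes with 8 to 11 TSSs. Of the other 24 ETS family genes, 6 showed it.

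**Figure D1:**
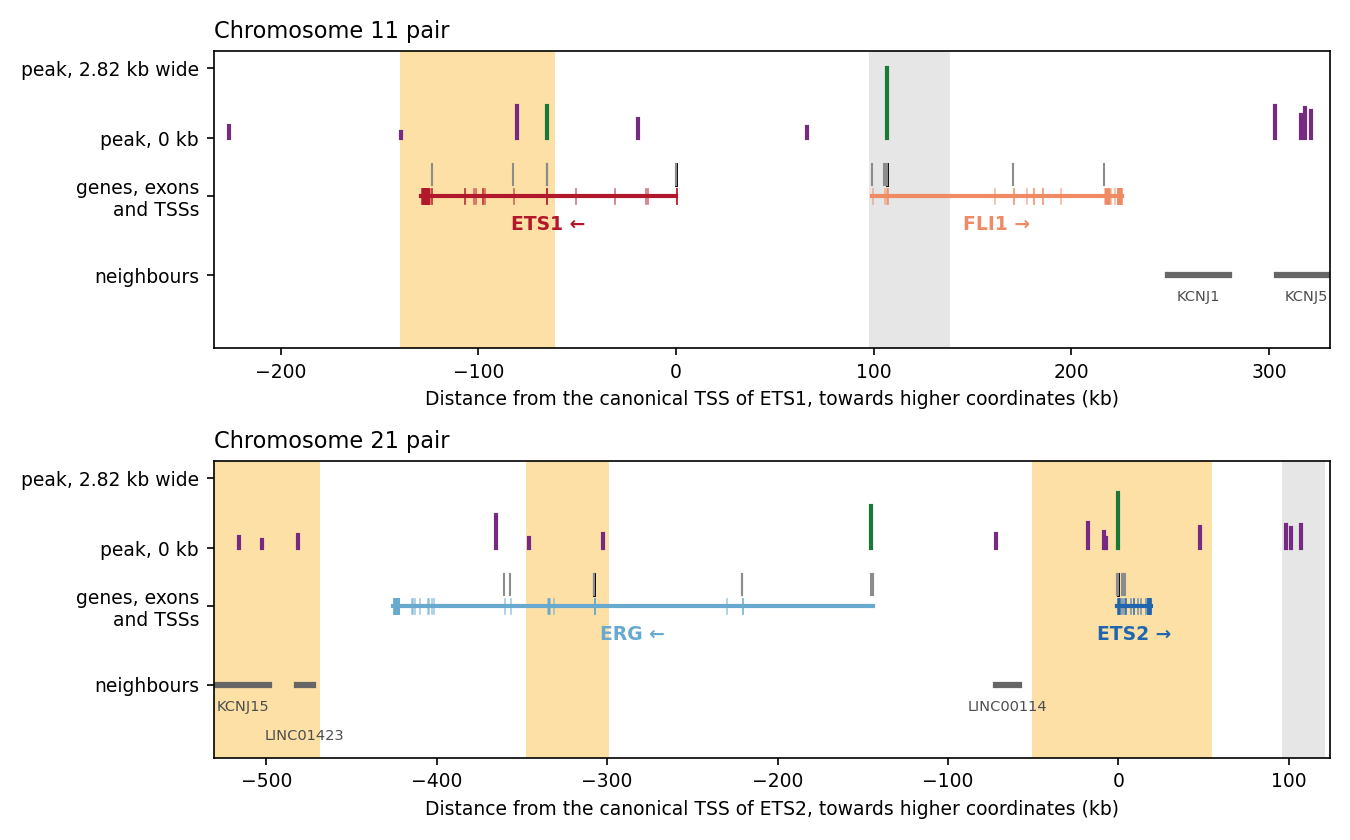
Maps of both loci, with the distance in kb from the canonical TSS of ETS1 (top) or ETS2 (bottom) on the x axis. Vertical bars above each gene are peaks, with height proportional to width (green at a TSS of the 4 genes, purple elsewhere), ticks are annotated TSSs (black for canonical), blocks are exons, and shading marks Super-Enhancers (orange) and typical enhancers (grey). Typical enhancers were available only in part, so an unshaded peak may still lie in one. The tallest bar of each gene stands at a TSS, and at ETS1 and ERG it stands away from the black tick.

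At ETS1 the peak at 128391603 to 128392913 was 1311 bp wide and covered the internal promoter. Its midpoint was 53 bp from the TSS at 128392205, and 4 protein-coding transcripts start from the 3 TSSs of this group. The canonical TSS at 128457453, which starts the longest coding transcript, was 19258 bp from the nearest peak midpoint. At ERG the arrangement ran the other way along the gene. Its peak at 40031979 to 40033677, 1699 bp wide, lay at the 5′ end of the gene, where its midpoint was 237 bp from the TSS at 40032591. That peak also covered the TSS at 40033618 near its upstream edge and reached 1639 bp downstream of it. The canonical TSS of ERG is an internal promoter at 39870401, and the nearest midpoint to it was at 5218 bp.

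At FLI1 the peak at 128562609 to 128565428 was 2820 bp wide, the widest of the 27. Its midpoint was 51 bp from the canonical TSS and 31 bp from the TSS at 128563987, and it covered all 5 TSSs of this group, over 128562877 to 128563987. The first TSS of FLI1, at 128556430, was 7588 bp from the same midpoint and was not covered. SENCR, a long noncoding RNA of vascular cells transcribed from the opposite strand, overlaps the same stretch, and the list has no strand that could divide the peak between the genes. At ETS2 the peak at 40176525 to 40178751 was 2227 bp wide, with its midpoint 215 bp from the canonical TSS at 40177853. It covered the 6 TSSs of the first group, from which 6 protein-coding transcripts start.

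**Figure D2:**
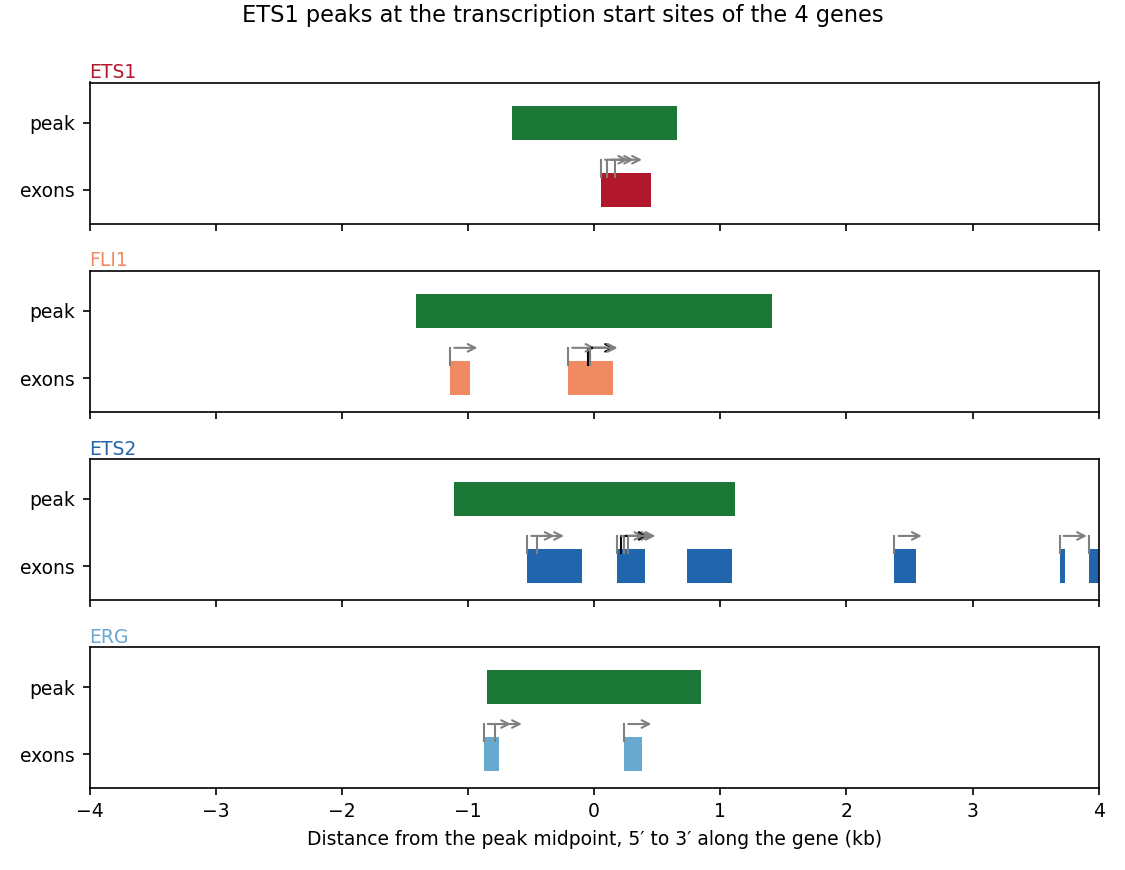
The peak at the TSSs of each gene (green bar), with annotated exons as coloured blocks and TSSs as arrows (black for the canonical TSS). The x axis is the distance in kb from the peak midpoint, 5′ to 3′ along the gene. The FLI1 peak of 2820 bp covers 5 TSSs, all upstream of its midpoint, and the ETS2 peak of 2227 bp covers 6 on both sides of it, while the ETS1 and ERG peaks of 1311 and 1699 bp cover no canonical TSS.

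The TSS peak was also the widest peak of each window. The next widest was 1280 bp in the FLI1 window, 991 bp in the ETS2 window and 1339 bp in the ERG window, so there the TSS peak stood clear. In the ETS1 window the TSS peak of 1311 bp was 9 bp wider than the next, the intronic peak of 1302 bp. Of the 5373 protein-coding genes with a peak at a TSS and at least 6 peaks in the window, 19.8% had their widest peak at a TSS of their own, and all 4 members did. The 5373 genes had no upper limit on the count, whereas the members held 6 to 9 peaks. In a fuller window a TSS peak has more others to exceed, and the share was not taken over genes with 6 to 9 peaks. This comparison was chosen after the widths had been seen, and it depends on the flank of 100 kb. The FLI1 TSS peak of 2820 bp lay 106565 bp from ETS1, and a peak of 4331 bp lay 128223 bp from FLI1. With a flank of 200 kb, neither ETS1 nor FLI1 would have its widest peak at its own TSS. The same would hold for ERG. Its window would then take in the ETS2 TSS peak of 2227 bp, wider than the ERG TSS peak of 1699 bp. Against the 11685 peaks of the list within 500 bp of a TSS, the FLI1 peak was wider than 95.4%, the ETS2 peak than 89.1%, the ERG peak than 74.2% and the ETS1 peak than 53.3%. The median width of the 27 peaks was 845 bp, against 969 bp for all 26961 nuclear peaks (quartiles 609 and 1462 bp). Within 500 bp of any TSS, the medians were 1258.5 bp for 8 of the 27 and 1262 bp for the whole list. Over 1500 bp from any TSS, they were 610.5 bp for 18 of the 27 and 706 bp for the whole list.

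**Figure D3:**
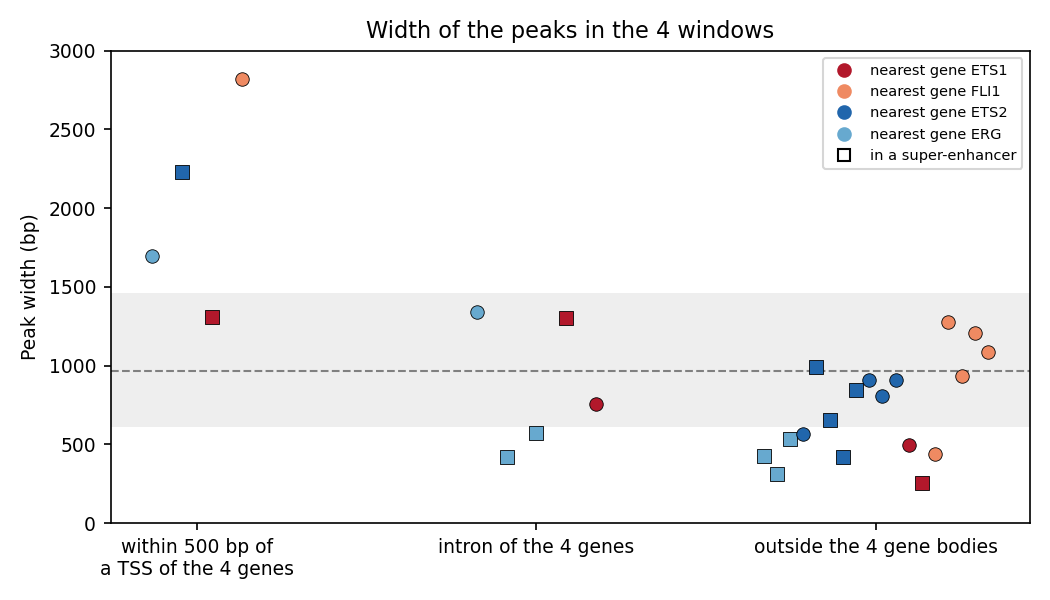
Width in bp (y axis) of each of the 27 peaks by its position against the 4 genes, coloured by the nearest of them, with squares for peaks in a Super-Enhancer. The grey band and dashed line are the quartiles and median of all 26961 nuclear peaks. The TSS peaks of FLI1, ETS2 and ERG, at 2820, 2227 and 1699 bp, lie above all other points, and that of ETS1, at 1311 bp, lies level with the widest intronic peaks of ETS1 and ERG.

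The TSSs with and without a peak differed in base composition. TSSs of a gene within 1000 bp of each other were joined, which gave 17 groups over the 4 genes, and a peak covered 5 of them (the internal group of ETS1, the canonical groups of FLI1 and ETS2 and both 5′ groups of ERG, where the outermost TSS at 40033704 lay just outside the peak). The ratio of observed to expected CpG in 600 bp around the TSS was 0.787 to 1.104 in the 5 covered groups and 0.092 to 0.586 in the 12 others, with no overlap. The covered group with the lowest ratio was that of ETS2. The uncovered group with the highest was the first TSS of FLI1. GC content was 54.8 to 76.3% in the covered groups and 38.5 to 59.8% in the others, so these ranges overlapped. For all genes, a canonical TSS was counted as having a peak when a midpoint lay within 500 bp, a rule that 4 of the 5 covered groups meet. Of the 13580 canonical TSSs of protein-coding genes with a CpG ratio of at least 0.6, 63.9% had a peak (95% Wilson confidence interval 63.1 to 64.7%), against 9.67% of the 6301 below it (8.96 to 10.4%). The CpG ratio was looked at after the peaks had been seen. The intervals here cover the counting of genes or peaks only.

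The number of GGAA cores overlapped between the groups with and without a peak. In 600 bp around the TSS, the covered groups held 3 to 9 GGAA on either strand (median 7) and the others held 4 to 13 (median 8). The canonical TSS group of ETS1 held 13, the most of the 17, and had no peak. The canonical group of ERG held 8 GGAA and 6 copies of the longer core AGGAAA or AGGAAG, also without a peak. At the 19881 canonical TSSs, the median was 6 GGAA and 69.9% held the longer core. The 200 bp upstream of the canonical TSS of ERG are printed for comparison with the stretches under the peaks, with the same capitals.
ERG, upstream of the canonical TSS, no peak, minus strand, chr21:39870402-39870601: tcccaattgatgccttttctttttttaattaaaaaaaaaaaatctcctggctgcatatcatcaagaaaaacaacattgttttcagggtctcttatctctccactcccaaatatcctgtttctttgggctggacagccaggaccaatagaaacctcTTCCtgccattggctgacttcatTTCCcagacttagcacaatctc
This stretch held 2 GGAA or TTCC and 0 CG dinucleotides. Under the peak at the 5′ end of ERG, the stretch of the same length held 1 and 34. A match to these letters is a description of the sequence, and whether a factor sits on it was not measured.

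**Figure D4:**
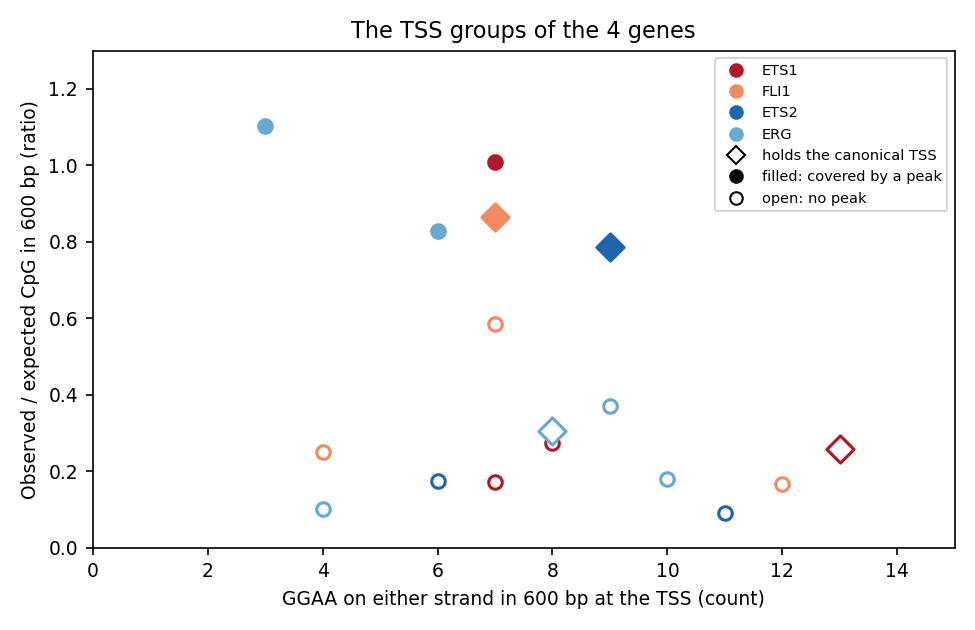
The 17 TSS groups of the 4 genes, with the count of GGAA in 600 bp on the x axis and the ratio of observed to expected CpG on the y axis. Filled points are covered by a peak, open points are not, and diamonds hold the canonical TSS. The 5 filled points all lie above a ratio of 0.78, and the open diamond farthest to the right, at 13 GGAA, is the canonical TSS of ETS1.

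Inside the genes, 5 peaks lay in introns, 2 at ETS1 and 3 at ERG, and none in FLI1 or ETS2 beyond the TSS peak. No midpoint fell in an exon away from a TSS. On the longest coding transcript of ETS1 (9 introns), the peak at 128376446 to 128377747 lay in intron 3 with a width of 1302 bp. The peak at 128437819 to 128438572 lay in intron 2 with a width of 754 bp. Their midpoints were 1807 and 19223 bp from the nearest TSS of the gene. On that of ERG (10 introns), the peaks at 39831939 to 39832359 and 39875333 to 39875906 lay in intron 3, with widths of 421 and 574 bp. The peak at 39812108 to 39813446 lay in intron 4, and at 1339 bp it was wider than 85.1% of all peaks over 1500 bp from a TSS. The peak at 39875333 was 133 bp from the TSS of ENSG00000287470, an antisense long noncoding RNA gene inside ERG, so it counts as a TSS peak of that gene. The bodies held 3 peaks at ETS1, 4 at ERG, 1 at FLI1 and 1 at ETS2, over 129, 282, 127 and 19.8 kb. ETS1 and FLI1, of nearly the same length, thus stood at 2.33 and 0.789 peaks per 100 kb of gene body. These are 3 peaks against 1, and no replicate error is known for them. Of all protein-coding genes, 54.1% had at least 1 peak in the body.

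Between the genes of a pair, the chromosome 11 gap of 99.0 kb held 1 peak, 442 bp wide, at 128523628 to 128524069. It lay 66395 bp upstream of ETS1 and 32582 bp upstream of FLI1 and was counted for both. The chromosome 21 gap of 143 kb held 4 peaks. The peak at 40105976 to 40106544 lay in LINC00114, a long noncoding RNA gene, and was counted for both ERG and ETS2. The other 3, at 40159257 to 40160247, 40169130 to 40169781 and 40170325 to 40170746, lay 17355, 7652 and 6572 bp upstream of ETS2, in no annotated gene. The last pair of these peaks was 543 bp apart. Per 100 kb the gaps held 1.01 and 2.79 peaks, beside 0.943 for the nuclear genome outside sequence gaps.

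The remaining 13 peaks lay outside the pairs. Downstream of ETS1 there were 2, at 128231349 to 128231845 (97059 bp away) and at 128318480 to 128318736 (10048 bp away). The latter, 257 bp wide, was the narrowest of the 27. Downstream of FLI1 the next peak lay 77319 bp beyond the end of the gene, at 128759842 to 128761121 and 770 bp from the TSS of KCNJ5, and 3 more followed inside KCNJ5. Of these, the peak at 128774884 to 128776089 was 106 bp from a TSS of KCNJ5-AS1. All 4 were at least 77319 bp from FLI1, so its window held 2 peaks when the flank was 50 kb. Downstream of ERG, 2 peaks lay in KCNJ15 and 1 in LINC01423, of 313 to 536 bp. Downstream of ETS2, 4 peaks of 809 to 912 bp lay in ENSG00000205622, a long noncoding RNA gene on the opposite strand, and 2 of them were 126 and 403 bp from its TSSs.

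The windows of 100 kb held 6 peaks for ETS1, 6 for FLI1, 9 for ETS2 and 8 for ERG, with 1 peak of each pair counted for both genes. At least 1 peak was found in the window of 88.1% of all protein-coding genes, whose median was 4 peaks, so the presence of a peak within 100 kb does not set the members apart. The count of ETS2 was above that of 76.9% of all genes, ERG of 72.3%, and ETS1 and FLI1 of 60.5% each. Long genes have long windows. Among genes with bodies of similar length (at most 1.25-fold apart), the median was 5 peaks for ETS2 (2214 genes), 3 for ERG (612), 4 for ETS1 (1535) and 3 for FLI1 (1546). The count of ERG was above that of 81.9% of its genes of similar length, ETS2 of 73.3%, and ETS1 and FLI1 of 68.4% each. Per 100 kb of window the counts were 4.10 for ETS2, 1.84 for FLI1, 1.82 for ETS1 and 1.66 for ERG, against a median of 1.63 over all genes. ETS2 stood above the other 3 on this scale, and ETS1, FLI1 and ERG differed from each other by less than 1 peak would add to a window of their length. Among genes of similar length it was ERG, and not ETS2, that ranked highest of the 4. At the edge of the rule, the outermost peaks inside were 97059 bp from ETS1, 95677 bp from FLI1, 90202 bp from ERG and 88369 bp from ETS2. The nearest peaks left out lay 106565, 118235, 107585 and 101135 bp from the same genes in the same order, and at ETS1 and FLI1 these were peaks in the body of the other gene of the pair.

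The other 24 genes of the ETS family were described in the same way. A peak at the canonical TSS was found for 10 of them (41.7%, 95% Wilson confidence interval 24.5 to 61.2%), against 46.7% of all protein-coding genes. These were ERF, ELK1, ELK3, ELK4, ETV3, ETV5, ETV6, ETV7, ELF2 and GABPA, among them the ternary complex factors ELK1, ELK3 and ELK4 and GABPA, the DNA-binding subunit of GABP. A further 6 (ETV1, ETV2, ETV4, ELF1, ELF3 and EHF) had a peak at another TSS only, as ETS1 and ERG did. The other 8, among them SPI1, SPIC, ELF5 and SPDEF, had none at a TSS. All 24 had at least 1 peak in the window, with a median of 5 (range 1 to 15). ERF, a repressor of the family, had most with 15, ETV4 had 11 and EHF and ETV2 had 8 each. ELF3, ELK4, ETV6, FEV and SPI1 followed with 7 each. With 6 to 9 peaks, the 4 members lay inside this range.

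**Figure D5:**
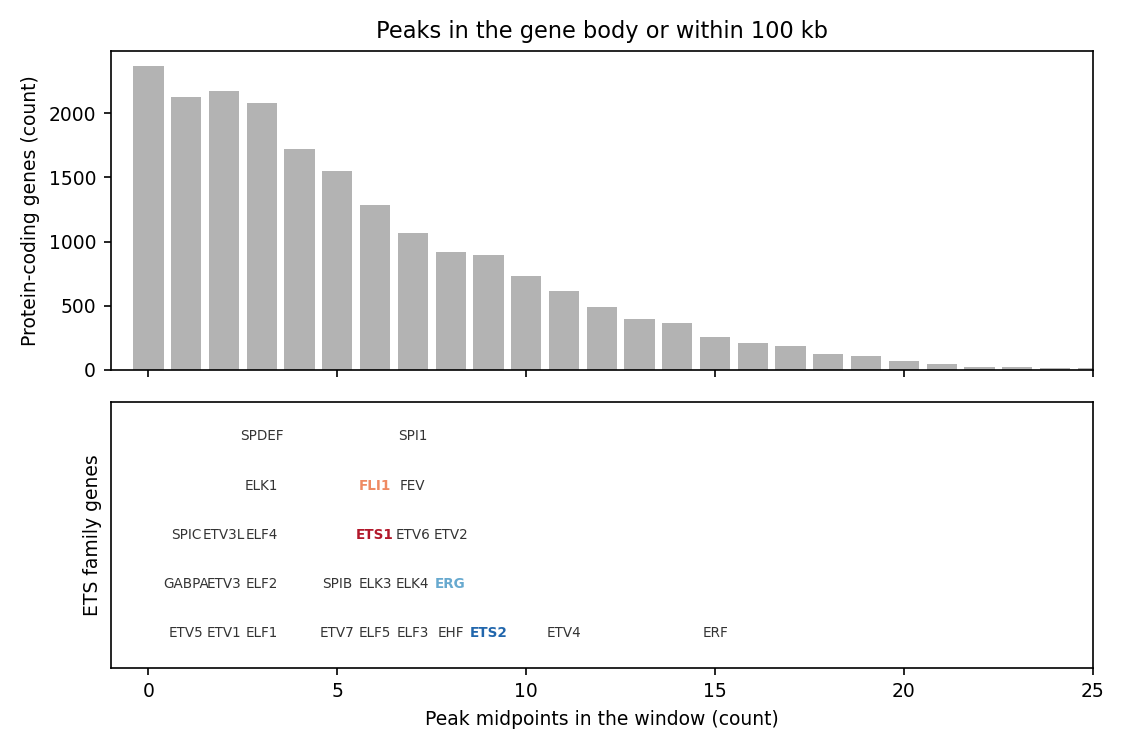
Peaks in the gene body or within 100 kb (x axis, count) for all 19881 protein-coding genes (bars, number of genes) and for the 28 ETS family genes (names placed at their counts, stacked with no meaning on the y axis). Genes with more than 25 peaks are not drawn. ETS1, FLI1, ERG and ETS2, in colour, stand at 6, 6, 8 and 9, inside the range of 1 to 15 of the other family genes.

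Super-Enhancers (SEs) are long stretches of active enhancers, which the authors called from H3K27Ac ChIP-Seq of SCC25. Of the 27 peaks, 13 lay in an SE (48.1%, 95% Wilson confidence interval 30.7 to 66.0%), against 17.2% of all nuclear peaks. These were 3 peaks in the SE over the 3′ part of ETS1 and beyond its end, 5 in the SE that holds the whole of ETS2, 2 in the SE inside ERG, which includes its canonical TSS, and 3 in an SE downstream of ERG that reaches into KCNJ15 and holds 8 peaks in all. No SE met the FLI1 window, and the TSS peak of FLI1 lay in a typical enhancer. The TSS peak of ERG lay in no SE. The other 3 SEs hold no further peaks, and the median of the 965 SEs was 4 peaks. On chromosome 11, 3 of the 11 peaks lay in an SE (27.3%, interval 9.75 to 56.6%, which includes 17.2%). On chromosome 21, 10 of the 16 did (62.5%, interval 38.6 to 81.5%). Peaks of the same SE are neighbours and not independent, which these intervals do not take into account. Over 1500 bp from any TSS lay 18 of the 27 peaks (66.7%, interval 47.8 to 81.4%), against 48.2% of all nuclear peaks. Within 500 bp of a TSS of any gene lay 8 (29.6%, interval 15.9 to 48.5%), against 43.3%. The intervals for both of these distances include the share of all nuclear peaks.

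The AP-1 site was found at the peaks away from TSSs. In 600 bp around the midpoint it was present in 10 of the 27 peaks, and all 10 were among the 18 over 1500 bp from a TSS (55.6%, interval 33.7 to 75.4%). None of the 8 peaks within 500 bp of a TSS held it in this window, although the whole peaks at the TSSs of ETS1, FLI1 and ETS2 held 1, 1 and 2. In the whole list the share was 39.3% of the 12982 distal peaks, inside the interval of 33.7 to 75.4%. Of the 11685 peaks at TSSs it was 9.46%, which the interval for 0 of 8 (0 to 32.4%) also includes. Of canonical TSSs, 5.70% held the site. The core AGGAAA or AGGAAG was present in 23 of the 27 (85.2%, interval 67.5 to 94.1%), against 79.2% of all nuclear peaks, and the interval includes that share. In 200 bp the order turned, with 33.3% of the 27 against 43.9% of all, and over the whole peak the shares were 85.2% and 90.0%. GGAA itself, at 3 to 15 copies in 600 bp, was present in all 27, as in 99.7% of all peaks. The RUNX site (TGTGGT or TGCGGT) was present in 6 of the 27 (22.2%, interval 10.6 to 40.8%), against 41.3% of all peaks. The peak with most AP-1 sites was that at 40159257, upstream of ETS2, with 3, and the next pair towards the gene held 1 each. Examples of peaks with both kinds of letters, all in SEs, are printed with the same capitals.
ETS1, downstream of the gene, minus strand, chr11:128318508-128318707: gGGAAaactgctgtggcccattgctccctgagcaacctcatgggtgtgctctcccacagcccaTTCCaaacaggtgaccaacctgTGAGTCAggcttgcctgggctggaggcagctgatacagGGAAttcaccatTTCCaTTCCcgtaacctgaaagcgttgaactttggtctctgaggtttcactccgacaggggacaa
ETS1, intron 3, minus strand, chr11:128376996-128377195: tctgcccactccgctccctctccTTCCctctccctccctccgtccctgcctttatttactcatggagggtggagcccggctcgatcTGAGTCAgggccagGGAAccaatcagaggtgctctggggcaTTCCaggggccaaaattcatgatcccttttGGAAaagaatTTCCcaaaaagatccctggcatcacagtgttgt
ERG, intron 3, minus strand, chr21:39832049-39832248: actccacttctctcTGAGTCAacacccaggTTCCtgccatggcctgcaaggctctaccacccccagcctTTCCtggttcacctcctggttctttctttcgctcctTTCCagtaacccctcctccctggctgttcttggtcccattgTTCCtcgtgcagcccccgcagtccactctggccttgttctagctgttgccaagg
ETS2, upstream of the gene, plus strand, chr21:40170435-40170634: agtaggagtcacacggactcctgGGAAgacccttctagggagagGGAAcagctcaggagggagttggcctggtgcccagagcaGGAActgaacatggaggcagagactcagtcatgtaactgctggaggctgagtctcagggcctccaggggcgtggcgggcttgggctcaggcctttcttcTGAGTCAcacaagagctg
The whole ETS1 intron 3 peak held 23 GGAA, 6 of them in the longer core, and the narrow peak downstream of ETS1 held 5 in 257 bp. The peak of 422 bp upstream of ETS2 held 4 GGAA, none in the longer core, and 1 AP-1 site. The TSS peaks, being wider, held 38 GGAA at FLI1, 32 at ETS2, 17 at ERG and 15 at ETS1. Per 100 bp this was 1.35 at FLI1, 1.44 at ETS2, 1.001 at ERG and 1.14 at ETS1, inside the range of 0.971 to 1.86 of the 5 intronic peaks.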

How the data were processed

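ETS1 ChIP-Seq was performed by the authors in SCC25 in 3 samples (2 with C20, 1 with 501A). Per the methods and the submitters' processing notes, reads were mapped to hg19 with Bowtie 1.1.1 keeping single-locus reads, files were merged with SAMtools 1.3, peaks were called with MACS2 against a merged input, and IDR gave the deposited list, which has 3 columns (chromosome, start, end) and is pooled over the samples. A peak lost in repeats or at the threshold cannot be recognised. The methods give reads per sample only as a range, and the list gives no depth for any sample.

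Genes, TSSs, exons and sequence came from GENCODE release 44 on GRCh37. All nuclear peaks ended within its chromosome lengths. The midpoint gave the position of a peak, with promoter limits of 500 and 1500 bp from the methods. Motifs were counted on both strands in 600 bp. SE positions were those of the authors and were complete, while typical enhancers were available only in part. The 9 mitochondrial peaks were left out of shares. Named genes were the 4 members, genes with a TSS within 500 bp of their peaks, and, of the other ETS genes, those with a canonical TSS peak, with no peak in the window or among the 5 with most peaks (ties included). Genes outside this rule (ETV1, ELF1, SPIC, ELF5, SPDEF, SENCR, KCNJ1, KCNJ5, KCNJ15, LINC00114 and LINC01423) were named after their values were seen. Members and lists were chosen with earlier results of these data known. Functions were checked on simulated data. Shares carry 95% Wilson intervals. Some promoter sequences are not reported here. Alternatives covered windows, distances, TSS sets, motif windows and list length. Python 3.11.15 was used with pysam 0.24.0, samtools 1.23.1, pandas 2.3.3, numpy 2.4.6, matplotlib 3.10.9 and scipy 1.17.1.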

Additional observations from a re-analysis of the deposited data

How the results depend on the processing

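No paired analysis was possible because the list pools the 3 samples, and for the same reason no replicate could be left out. Of 65 values under alternative settings, 32 stayed close to the value reported (within 1.5 times for counts, within the interval for shares and the median) and 33 did not. The number of peaks in the 4 windows (27) was 15 with a flank of 50 kb, 43 with 200 kb, 9 in the gene bodies alone and 17 with the first 13485 peaks of the list, the meaning of whose order is not given in the sources used here. In the gene bodies alone, ETS1 had 3, FLI1 1, ETS2 1 and ERG 4. With 50 kb, FLI1 had 2, ETS2 5 and ERG 4, and with 200 kb FLI1 had 11, ETS2 18 and ERG 18. With the first 13485 peaks, ETS1 had 3 and ERG 4. Any annotated TSS in place of the canonical TSS gave 4 members with a peak instead of 2, 66.7% of the other ETS genes and 53.8% of protein-coding genes. For protein-coding genes the share was 52.6% within 1000 bp, 54.1% within 1500 bp, 53.8% with any overlap and 30.3% with the first 13485 peaks. The ETS core was present in 33.3% of the 27 peaks and 43.9% of all peaks in 200 bp, so that the order of both shares turned, and in 90.0% of all peaks over the whole peak, where the share of the 27 was 85.2%. As GGAA, it was present in 100% and 99.7%. With TSSs of protein-coding genes only, 81.5% of the 27 and 55.0% of all peaks were over 1500 bp away. Of all peaks, 56.7% were over 500 bp away, and with the first 13485, 41.6% were over 1500 bp away and 19.5% lay in SEs. These changes follow from the windows, distances and peaks that each setting takes in.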
